A study of Mus musculus with 18 samples.

Results

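The 7 sirtuin genes of the mouse, Sirt1 to Sirt7, were examined in ChIP-seq peak lists of activated B cells. They were picked by symbol from the 21911 protein-coding genes that GENCODE M21 places on chromosomes 1 to 19, X and Y of GRCm38, and were singled out because the Sirt3 promoter held a KDM2A peak in all 6 KDM2A lists. That occupancy is therefore a description here and not a finding. Splenic B cells came from WT mice and from mice lacking Mir155 (KO), the gene of the microRNA miR-155. Both genotypes were on the C57BL/6J background, and the labels gave no age. The cells of both genotypes were cultured for 2 days at 1% O2 with anti-CD40 at 1 µg/ml, an F(ab')2 antibody to IgM at 5 µg/ml and IL-4 at 4 ng/ml, so no list comes from normoxic or resting cells. Each genotype gave 3 KDM2A lists and 3 H3K36me2 lists, and in every group replicate 1 was labelled male and replicates 2 and 3 female. B cells had been enriched by depleting other cells, and the KDM2A antibody was a gift rather than a commercial one. No label ties the libraries to separate mice, so each p-value measures the spread between these libraries, which may be technical in part.

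Sirtuins are deacylases that spend one NAD molecule for each acyl group they remove from a lysine, which ties their activity to the metabolic state of the cell. SIRT1, SIRT6 and SIRT7 act mainly in the nucleus, SIRT2 mainly in the cytoplasm, and SIRT3, SIRT4 and SIRT5 in mitochondria, where SIRT3 is the main deacetylase and is known for protecting cells from reactive oxygen species. KDM2A is a histone demethylase with a CXXC domain that binds unmethylated CpG dinucleotides, and it removes methyl groups from dimethylated lysine 36 of histone H3 (H3K36me2). ChIP-seq of these factors shows where they sit and not how much RNA a gene makes.

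Because KDM2A binds CpG, the promoter sequences were read first. The windows run from 250 bases before to 50 bases after each RefSeq start (GRCm38.p6), and all 7 genes matched, with a second window each for Sirt3 and Sirt6. Sirt1 had the most CpG of the family, with 47 in 300 bp, more than or as many as 98.8% of the 32851 promoter windows. The Sirt3 windows held 24 and 23, those of Sirt6 21 and 20, and Sirt7 held 17, Sirt2 16, and Sirt4 and Sirt5 15 each. The median over all windows was 7, so each sirtuin window lay above it, the lowest at the 67.0th percentile. A few of them are printed below, 280 bases each and 5′ to 3′ on the gene's strand, ending 30 bases after the RefSeq start, with every CpG in capitals. Sirt1 is shown as the window richest in CpG, Sirt3 as the gene that led to the choice of the family, and Sirt5 and Sirt6 as the genes whose KDM2A peaks were missing from some lists. Sirt1 lies at chr10:63339006-63339285, Sirt3 at chr7:140882280-140882559, Sirt5 at chr13:43365285-43365564 and Sirt6 at chr10:81627537-81627816. Sirt5 is on the plus strand and the others are on the minus strand.
Sirt1: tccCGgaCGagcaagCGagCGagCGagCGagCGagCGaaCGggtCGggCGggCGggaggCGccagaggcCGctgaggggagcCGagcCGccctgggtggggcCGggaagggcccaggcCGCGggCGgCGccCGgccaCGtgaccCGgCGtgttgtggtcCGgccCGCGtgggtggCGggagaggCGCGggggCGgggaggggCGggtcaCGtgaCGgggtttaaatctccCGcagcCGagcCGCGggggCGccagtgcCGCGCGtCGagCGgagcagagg
Sirt3: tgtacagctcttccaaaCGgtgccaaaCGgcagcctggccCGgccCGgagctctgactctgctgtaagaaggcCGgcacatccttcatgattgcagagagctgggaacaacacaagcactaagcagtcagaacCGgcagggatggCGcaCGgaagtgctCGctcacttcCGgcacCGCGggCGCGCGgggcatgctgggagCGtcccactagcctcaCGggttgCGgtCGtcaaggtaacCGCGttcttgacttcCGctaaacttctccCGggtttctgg
Sirt5: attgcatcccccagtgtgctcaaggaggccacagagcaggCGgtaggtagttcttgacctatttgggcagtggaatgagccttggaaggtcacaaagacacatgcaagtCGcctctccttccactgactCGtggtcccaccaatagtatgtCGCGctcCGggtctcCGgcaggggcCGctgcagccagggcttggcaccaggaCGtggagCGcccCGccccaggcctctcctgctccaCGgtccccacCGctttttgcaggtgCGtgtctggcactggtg
Sirt6: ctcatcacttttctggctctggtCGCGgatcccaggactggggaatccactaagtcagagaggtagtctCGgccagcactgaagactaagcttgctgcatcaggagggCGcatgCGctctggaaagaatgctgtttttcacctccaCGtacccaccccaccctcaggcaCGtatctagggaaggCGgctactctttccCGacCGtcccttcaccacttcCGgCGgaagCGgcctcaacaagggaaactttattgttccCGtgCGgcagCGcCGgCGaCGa

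Of the 45 CpG printed for Sirt1, 23 fall in the first 140 bases and 22 in the last 140. Those of Sirt3 lie toward the start, with 6 in the first and 17 in the last 140, as do those of Sirt5 (3 and 11) and Sirt6 (5 and 14). Short motifs, picked with the sequences in view, were searched on both strands. ACGTG, the core of the hypoxia response element, occurred in 4 of the 9 sirtuin windows (Sirt1, Sirt4, Sirt5 and one of Sirt6) and in 19.6% of all windows. In Sirt1 its 4 matches are the 2 copies of the E-box CACGTG, each read on both strands, and that E-box was in no other sirtuin window, against 7.2% of all windows. The GC box GGGCGG was in 6 of the 9 windows, with 7 matches in Sirt1, and in 35.7% of all windows. The ETS core CCGGAAG was in 3 of the 9 and in 8.9% of all. A match is a run of letters and does not show that a factor binds.

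**Figure D1:**
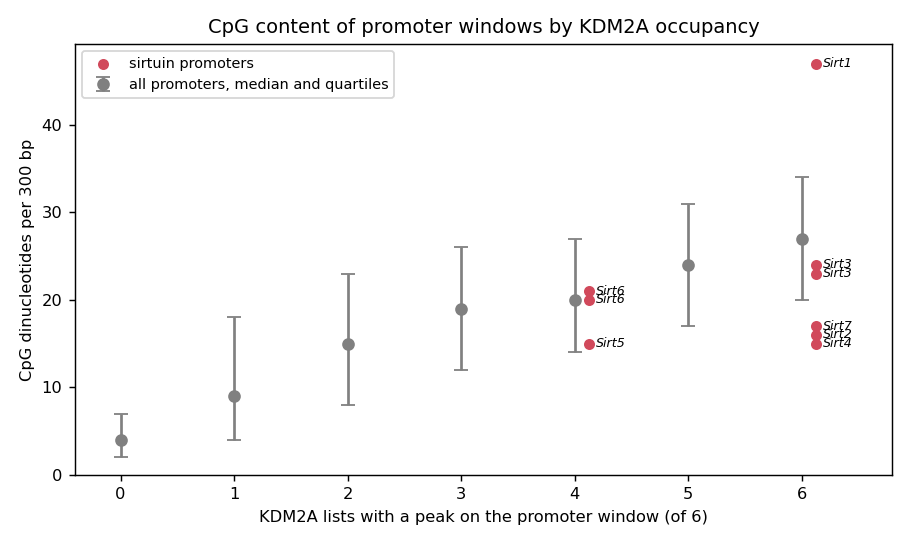
CpG dinucleotides per 300 bp promoter window (vertical axis) against the number of KDM2A lists, of 6, with a peak on the window (horizontal axis). Grey points and bars are the median and quartiles over all 32851 windows, and red points are the 9 sirtuin windows. The median rises from 4 with no list to 27 with all 6, and of the sirtuin windows with 6 lists only Sirt1 lies above that median.

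Across all 32851 windows, CpG content rose with KDM2A occupancy, from a median of 4 in windows without a KDM2A peak to 27 in windows with a peak in all 6 lists. Of the sirtuin windows, those of Sirt1, Sirt2, Sirt3, Sirt4 and Sirt7 were overlapped by a peak in all 6 lists, and those of Sirt5 and Sirt6 in 4. Among windows with 6 lists, Sirt2, Sirt4 and Sirt7, at 15 to 17 CpG, fell below the lower quartile of 20. This relation is across promoters, which are not replicates, and it carries no test.

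A gene was scored as holding a KDM2A peak when a peak lay within 2 kb of any of its annotated transcription start sites (TSS), and also at the start of its principal transcript. Of the 7 sirtuin genes, 5 held a peak in all 6 lists, against 26.4% of all protein-coding genes. With the same number of strongest peaks per list, 1 sirtuin gene did, beside 4513 of the 21911 genes. With only peaks of −log10 q of at least 2 it was also 1, beside 2392 of 21911. With every peak counted, all 7 held a peak in at least 2 of the 3 WT lists and 6 did so in KO, where the shares over all genes were 47.7% and 41.7%. All KO lists were shorter than the WT ones (15387 to 21705 KDM2A peaks against 23372 to 29105), and the part of list length in the counts was not tested. Among markers of cell types, the B cell genes Cd79a, Cd79b and Pax5 held a promoter peak in all 6 lists, and the B cell gene Ms4a1 in 3 WT lists and 1 KO list. The T cell genes Cd3e and Cd4 and the myeloid gene Itgam had none in any list, and the T cell gene Cd8a had one in 1 WT list. A KDM2A peak does not show that a gene makes RNA, so these counts do not settle the cell type.

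**Figure D2:**
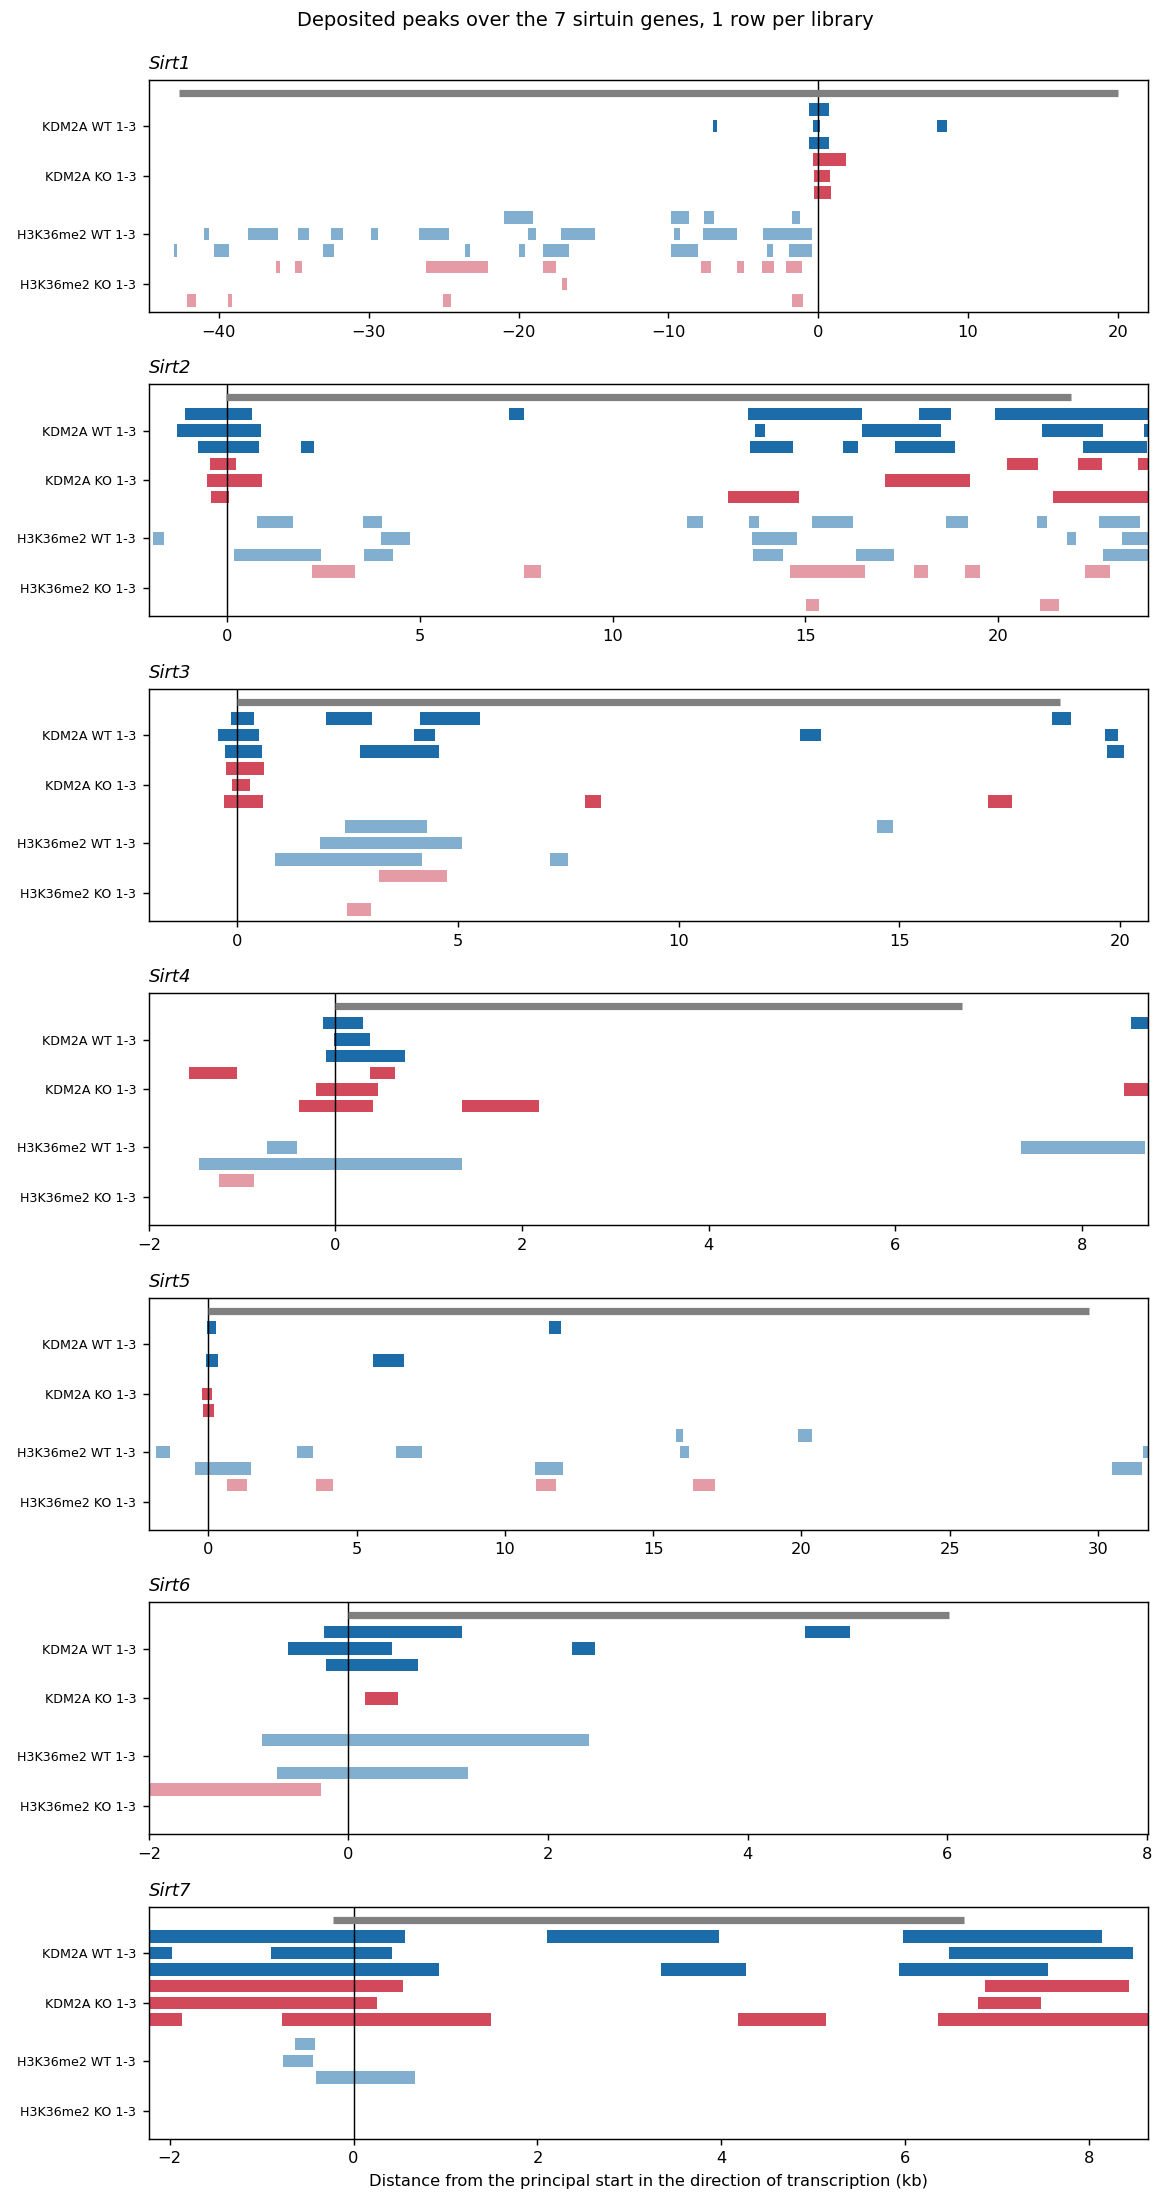
Peaks of the 12 lists over each sirtuin gene, as distance in kb from the principal start in the direction of transcription. Each row is 1 library (blue WT, red KO, dark KDM2A, pale H3K36me2), the grey bar is the annotated gene and the vertical line its principal start. KDM2A peaks stack on the line in 6 lists for Sirt1, Sirt2, Sirt3 and Sirt7, and H3K36me2 peaks mostly lie away from it.

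At Sirt3 (chr7:140863666-140882309, minus strand) a KDM2A peak covered the start at 140882309 in all 6 lists. The stretch common to them ran from 140882011 to 140882426, 416 bp long, and so took in the start and the bases just upstream that are printed above. Psmd13, a proteasome subunit gene, is transcribed the opposite way. Its principal start at 140881968 lies 341 bp inside Sirt3 and was under the same peak in 5 lists, all but KO replicate 2, and another Psmd13 TSS, 105 bp upstream of the Sirt3 start, was under it in all 6. Signal of the 2 promoters cannot be told apart here. The fold is the authors' ratio of a peak over local background. For WT replicates 1, 2 and 3 it read 2.40, 2.92 and 2.43, and for KO replicates 1, 2 and 3 it read 2.81, 3.40 and 3.53. The KO values were the higher ones apart from KO replicate 1, which lay below WT replicate 2. The peak caller's −log10 q of the same peaks came to 1.91, 1.97 and 1.61 in WT and 1.93, 3.98 and 4.41 in KO. With only peaks of −log10 q of at least 2 kept, Sirt3 held a promoter peak in 0 of 3 WT lists and 2 of 3 KO lists, so its presence in every list included 4 peaks below that level.

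Counting any TSS of Sirt3, the highest fold averaged 2.64 ± 0.26 over the 3 WT libraries and 3.25 ± 0.38 over the 3 KO libraries (mean ± SD). After each library was centred on its median over the 5778 genes with a peak in all 6 lists, Sirt3 was 0.36 higher in KO on the log2 scale (SE 0.11), and the 3 KO values lay above the 3 WT values. That difference ranked 18th from the highest of 5778, and KO lay above WT in this way for 5.21% of the genes tested. It did not pass the test (limma with Benjamini-Hochberg adjustment over all tested genes, adjusted p = 0.914). No gene passed: 0% of 5778 were called, and 298 had an unadjusted p under 0.05. Before centring, the Sirt3 fold was 0.40 higher in KO within the male pair and 0.71 higher on average within the females. Within each list, the Sirt3 fold stood at the 4.19th, 27.4th and 11.1th percentile of genes with a promoter peak in WT and at the 32.1th, 87.7th and 89.3th in KO.

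**Figure D3:**
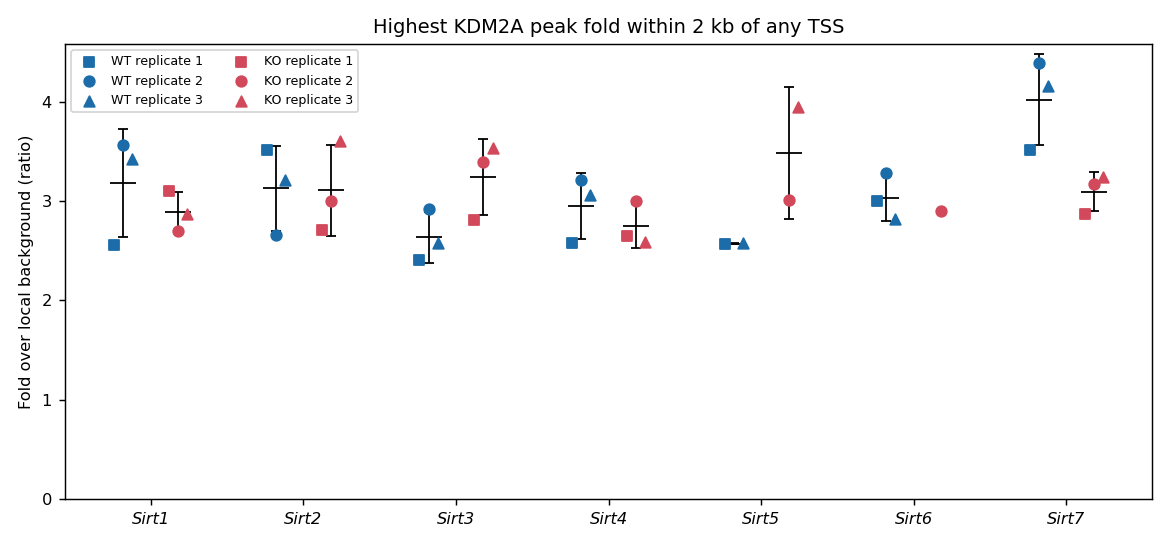
Highest KDM2A fold over local background (a ratio, linear axis from 0) within 2 kb of any TSS of each sirtuin gene. Points are libraries (blue WT, red KO, square replicate 1, circle 2, triangle 3), the dash is the mean and the bar the SD. Missing points are lists without a peak, 1 in each genotype for Sirt5 and 2 KO lists for Sirt6.

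SIRT5 removes succinyl, malonyl and glutaryl groups. Its gene (chr13:43365496-43395203, plus strand) had a peak over the principal start in 4 lists, with none in WT replicate 2 or KO replicate 1. The fold was 2.57 and 2.58 in WT replicates 1 and 3 and 3.02 and 3.95 in KO replicates 2 and 3. Sirt5 is outside the fit over genes with a peak in all 6 lists. In the alternative fit over the 8627 genes with a peak in at least 2 lists of each genotype, which leaves out the libraries without a peak, it was 0.45 higher in KO (log2, SE 0.15, rank 11 from the highest) and did not pass (limma adjusted p = 0.944). That fit called no gene, with 408 at an unadjusted p under 0.05. SIRT4 acts on glutamine and leucine metabolism. Its gene (chr5:115478010-115484725, minus strand) had a promoter peak in all 6 lists, at folds of 2.58, 3.21 and 3.06 in WT and 2.65, 3.00 and 2.59 in KO. In KO replicate 1 no peak covered the Sirt4 start itself. The groups overlapped and the centred difference was −0.04 (log2, SE 0.10, adjusted p = 0.988 by limma).

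Of the nuclear members, Sirt6 differed most in presence. SIRT6 deacetylates histone H3 and takes part in DNA repair and the control of glycolytic genes. At Sirt6 (chr10:81621785-81627797, minus strand) a peak covered the principal start in all 3 WT lists, with folds of 3.00, 3.29 and 2.82. Among the KO lists only replicate 2 had a peak near it, at a fold of 2.90, and that one began 163 bp into the gene. A peak in 2 or 3 WT lists and fewer than 2 KO lists was found in 8.32% of all genes, in lists that were all shorter in KO. These were 1824 genes, out of the 10451 with a peak in at least 2 WT lists, the only ones that could show it. Ankrd24 has a TSS 743 bp away on the opposite strand and others further inside the gene, and over any of them its highest fold ran from 2.90 to 3.70 over the 6 lists. In WT replicate 2 and KO replicate 2 that highest peak was the Sirt6 peak itself (3.29 and 2.90), and in the other lists it lay at a TSS further inside Ankrd24, so these values are not a separate measure of the start shared with Sirt6.

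SIRT1 deacetylates p53, FOXO factors and NF-κB subunits. Its annotated gene (chr10:63319005-63381704, minus strand) is drawn out by 1 long transcript that starts beside Dnajc12, whereas the principal start is at 63339032. KDM2A peaks covered that start in all 6 lists, at folds of 2.56, 3.56 and 3.43 in WT and 3.10, 2.71 and 2.87 in KO. The groups overlapped, and the centred difference was −0.06 (log2, SE 0.12, adjusted p = 0.978 by limma). Dnajc12 had no KDM2A promoter peak in any list.

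SIRT7 acts in the nucleolus on ribosomal RNA genes. At any TSS its fold (chr11:120618372-120625240, minus strand) ran at 3.52, 4.40 and 4.16 in WT and 2.87, 3.17 and 3.25 in KO, where no value reached the lowest WT one. KO lay below WT in this way, after centring, for 5.17% of the genes tested, and the difference of −0.31 (log2, SE 0.13) ranked 5735th of 5778 and did not pass (adjusted p = 0.914 by limma). These peaks sit at the 3′ end of Sirt7 and count for it only through a short transcript that starts near there. In all 6 lists they cover the start of Pcyt2, a gene of phosphatidylethanolamine synthesis, 436 bp beyond the end of Sirt7 (a gene named after its values were seen). Within 2 kb of the principal start of Sirt7 the fold stood at 2.95, 3.11 and 3.09 in WT and 2.85, 2.81 and 3.00 in KO, and the difference there was −0.02 (log2, SE 0.10, adjusted p = 0.998 by limma). The peaks over that start were 1315 to 10077 bp wide and in all 6 lists reached into Mafg (also named after its values were seen), a gene of the same strand that overlaps the first 124 bp of Sirt7. The gap between genotypes at any TSS therefore belongs to the Pcyt2 end of the gene and not to the Sirt7 start.

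SIRT2, the tubulin deacetylase, shares its promoter with Nfkbib, an inhibitor of NF-κB, whose TSS on the opposite strand is 95 bp from the annotated beginning of the Sirt2 gene. Sirt2 (chr7:28766735-28788661, plus strand) had peaks over its principal start in all 6 lists, at folds of 3.52, 2.66 and 3.21 in WT and 2.71, 3.01 and 3.61 in KO. The values ranged over the same span in both genotypes, with a centred difference of 0.05 (log2, SE 0.14, adjusted p = 0.984 by limma). Further KDM2A peaks lay in the body and toward the 3′ end of Sirt2, 5, 4 and 5 of them on the WT gene body and 2, 2 and 3 on the KO one, the start peak included. All KO KDM2A lists were shorter than the WT ones, and the part of that in these counts was not tested. No share of all genes with such a pattern was taken.

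**Figure D4:**
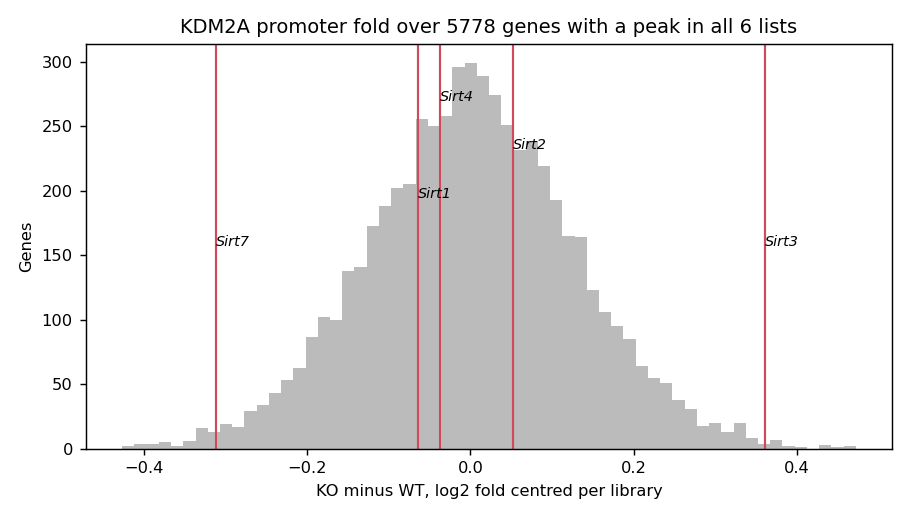
Number of genes (vertical axis) by KO minus WT difference in KDM2A promoter fold, log2 after centring each library (horizontal axis), over the 5778 genes with a peak in all 6 lists. Red lines mark the 5 sirtuin genes tested. Sirt3 at 0.36 and Sirt7 at −0.31 lie in opposite tails, and Sirt1, Sirt2 and Sirt4 lie near 0.

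The thresholds of the study were applied to promoters, which departs from the study's own use: there they were set on peaks and on signal over input, here on the mean of a gene's highest deposited fold within 2 kb of any TSS over the lists with a peak. Bound here means a peak in 2 or 3 of the 3 lists of that genotype. A gene bound in both genotypes counted as enriched in one when its mean fold there was over 3 and exceeded the other mean by 1.17 times, and a gene bound in a single genotype when its mean fold was over 3. By this version Sirt3 (2.64 in WT and 3.25 in KO) and Sirt5 (2.57 and 3.49) were KO-enriched, a class that held 2.10% of the 10955 genes bound in either genotype. Sirt6, bound in WT only by this rule (3 WT lists, mean 3.04, and 1 KO list), and Sirt7 (4.02 and 3.10) were WT-enriched, as were 11.4% of those genes. At the principal start Sirt7 left the class. The rule makes no use of the spread between libraries, and for Sirt3 and Sirt5 it rests on KO means of 3 and 2 values. For Sirt6 the WT mean of 3.04 lay close to the threshold of 3, with WT replicate 3 at 2.82. Without WT replicate 2 the number of enriched sirtuin genes went from 4 to 3.

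Genes beside Sirt3, Psmd13 among them, can share its peak and were left out of the next comparison. Among the others, Amh, the gene of anti-Müllerian hormone (Pearson r = 0.986), followed the centred fold of Sirt3 most closely over the 6 libraries. Next came Ing4, a reader of methylated histone H3 (0.983), and Ncbp3, an mRNA cap-binding protein gene (0.983). Of 5775 genes compared, 15 had an r over 0.95. With 6 points and this many genes it is a description only.

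Genes around the sirtuins in NAD and acetyl-lysine biology were read in the same fit. None of them passed in either direction, in lists of NAD synthesis (3 of 13 tested), other NAD consumers (3 of 7), zinc-dependent deacetylases (3 of 11), acetyltransferases (7 of 9) and known sirtuin substrates (11 of 17). The median differences were −0.02, 0.19, −0.12, 0.05 and 0.04 (log2), beside 0.002 over all genes tested. Parp2, a poly(ADP-ribose) polymerase that spends NAD in DNA repair, had the highest difference of these lists, with folds of 3.32, 2.77 and 2.71 in WT and 3.06, 3.17 and 4.35 in KO (0.32, SE 0.14, adjusted p = 0.914 by limma). Hdac7, a class II deacetylase, had the lowest, with 3.83, 3.60 and 3.11 in WT and 3.03, 2.69 and 3.00 in KO (−0.21, SE 0.12, adjusted p = 0.914). Differences of the other list extremes lay close to 0: Nadk 0.02, Slc25a51 −0.06, Sarm1 −0.004, Hdac1 −0.05 and Kat2a −0.07. Ep300 stood at 0.17, and of the substrates Hif1a stood at 0.13 and Trp53 at −0.13.

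H3K36me2, which KDM2A removes, was not used by the rule that chose the genes. It was scored as the percent of the gene body under peaks. The lists covered 4.17%, 5.32% and 5.25% of the genome in WT and 3.63%, 1.59% and 1.44% in KO, and the part of that genome share in the values below was not tested. At Sirt3 the peaks took up 11.9%, 17.3% and 20.1% of the gene in WT replicates 1, 2 and 3, and 8.19%, 0% and 2.95% in the KO replicates, each of which lay below the lowest WT value. The means were 16.4 ± 4.15% for WT and 3.71 ± 4.15% for KO (SD, n = 3). An exact two-sided permutation test over the libraries gave p = 0.1, the smallest that 3 against 3 allow, and limma an adjusted p of 0.238. KO lay below WT in this way for 28.1% of the 10340 genes tested. The median difference over those genes was −4.46 percentage points, and that of Sirt3 was −12.7. Divided by each list's share of the genome, Sirt3 coverage was 2.85, 3.25 and 3.82 times that share in WT and 2.26, 0 and 2.04 times in KO. KO lay below WT on that scale for 10.3% of the 10340 genes, and the limma adjusted p of Sirt3 was 0.623. The longest H3K36me2 peak in Sirt3 ran from 2441 to 4295 bp from the start in WT replicate 1, from 1874 to 5094 bp in WT replicate 2 and from 857 to 4196 bp in WT replicate 3. It ran from 3218 to 4744 bp in KO replicate 1 and from 2485 to 3034 bp in KO replicate 3, and KO replicate 2 had none. No list had an H3K36me2 peak over the Sirt3 start itself, where the KDM2A peak stood.

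**Figure D5:**
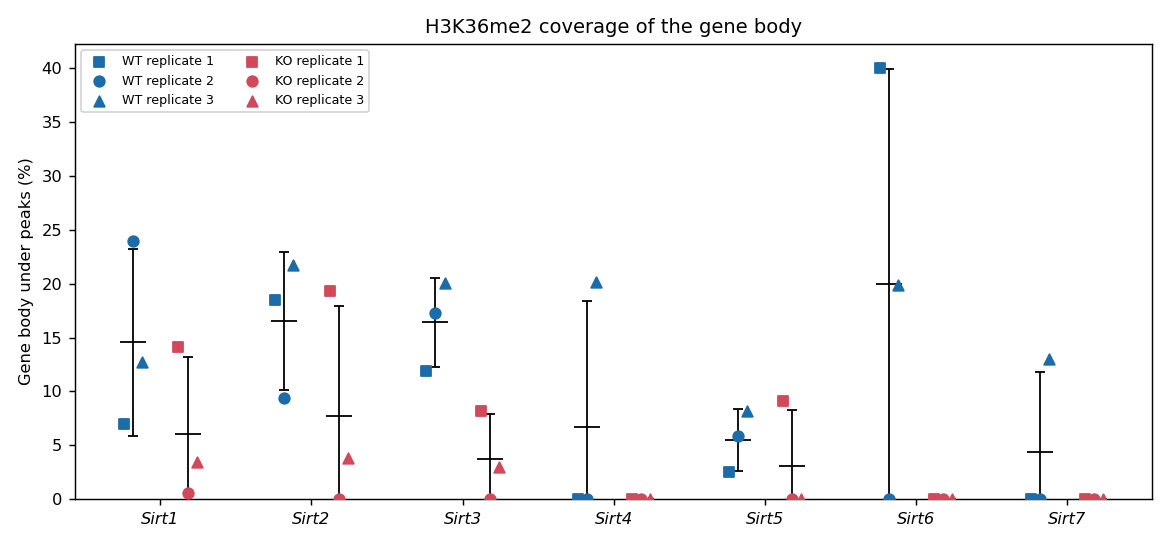
Percent of each sirtuin gene body under H3K36me2 peaks (linear axis from 0). Points are libraries (blue WT, red KO, square replicate 1, circle 2, triangle 3), the dash is the mean and the bar the SD. Of the 7 genes Sirt3 alone has every KO value below every WT value, a pattern found in 28.1% of the 10340 genes tested.

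Coverage of Sirt2 came to 18.5%, 9.40% and 21.8% in WT and 19.3%, 0% and 3.79% in KO. That of Sirt1 stood at 6.94%, 24.0% and 12.7% in WT and 14.1%, 0.56% and 3.42% in KO, all of it upstream of the principal start within the span of the long transcript. The principal Sirt1 transcript had 0% in every list. In both genes the male KO library lay within the WT range and the female KO libraries lay below it. The male KO list covered the most of the genome among the KO lists. Sirt5 had 2.47%, 5.81% and 8.15% in WT and 9.09%, 0% and 0% in KO. Sirt6 was covered in WT replicates 1 and 3 only (40.0% and 19.9%), with peaks across its start, and Sirt4 and Sirt7 in WT replicate 3 only (20.2% and 12.97%), too few lists for the test. None of the 5 sirtuin genes tested passed (limma adjusted p from 0.238 to 0.596), and neither did any other gene, 0% of 10340, with 2149 at an unadjusted p under 0.05. That number was 3460 without KO replicate 1, 619 without KO replicate 2, 619 without KO replicate 3 and 728 on the scale of the genome share. A gene could enter this test through its WT lists alone, as Sirt6 did.

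In the 2.5 kb downstream of the annotated start, Sirt3 had 2.36%, 25.04% and 65.7% in WT and 0%, 0% and 0.60% in KO. KO lay below WT in this way for 16.3% of the 5939 genes tested, and Sirt3 did not pass (difference −30.8 points, SE 18.1, limma adjusted p = 0.390, exact permutation p = 0.1). Without WT replicate 3 the Sirt3 difference was −13.5 points. Sirt6 had 96.3%, 0% and 47.8% in WT and 0% in each KO list, and Sirt2 37.6%, 0% and 89.9% in WT and 10.5%, 0% and 0% in KO. Sirt1 had 0%, 12.3% and 7.20% in WT and 0%, 0% and 24.2% in KO, a difference of 1.59 points (SE 9.68) that turned to −6.49 without KO replicate 3 and to −1.66 without WT replicate 1. Downstream of the principal Sirt1 start it was 0% in all 6 lists. Sirt5 had 0%, 0% and 58.3% in WT and 27.9%, 0% and 0% in KO. Sirt4 and Sirt7 were covered in WT replicate 3 only, at 54.2% and 35.6%. Within WT alone the Sirt2 and Sirt6 values ran from 0 to most of the window. The test called 0% of genes, with 590 at an unadjusted p under 0.05. That number was 1127, 1126 and 987 without WT replicates 1, 2 and 3 in turn, 237 without KO replicate 2 and 208 without KO replicate 3. On the scale of the genome share it was 125, and the limma adjusted p of Sirt3 there was 0.511. Bases of the gene under both a KDM2A and an H3K36me2 peak of the same replicate number came to 768, 476 and 1404 in the WT pairs for Sirt3 and to 0 in each KO pair. For Sirt2 they came to 1769, 402 and 1806 in WT and to 0, 0 and 139 in KO, and Sirt1 and Sirt6 had some in 2 WT pairs each and none in KO. Sirt4, Sirt5 and Sirt7 had them in the pair of WT replicate 3 alone, at 751, 326 and 891. The KO lists were shorter for KDM2A and covered less of the genome for H3K36me2, and the part of this in these values was not tested. No share over all genes is given for bases under both marks, so the sirtuin values cannot be set against a background.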

How the data were processed

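Peak lists of 12 libraries (3 per genotype for KDM2A and for H3K36me2) were analysed, without separate use of the 6 inputs. Per the study's methods and processing notes, the authors ran nf-core/chipseq (BWA, GRCm38, broad peaks by MACS2), with 1 list per library and no pooling. The deposited fold of each peak is a ratio over local background, not normalized between lists, and the deposited −log10 q is the peak caller's. The version of MACS2 is not given in the sources used here. The deposited score and −log10 p were not used. Depth is unknown because the lists hold no reads, and a list of fewer peaks cannot be told apart from a shallower library.

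Genes and TSS came from GENCODE M21 and promoter windows from RefSeq (GRCm38.p6). A peak counted with 1 bp of overlap. Log2 fold, centred per library, and percent coverage went into limma 3.58.1 under R 4.3.3 (eBayes with trend) and Benjamini-Hochberg adjustment at 0.05, over genes with a KDM2A peak in all 6 lists or H3K36me2 in at least 2. The script was tested on simulated data. The principal transcript was the best by APPRIS rank. Named genes were the 7 members, genes with a TSS within 2 kb of a member's start, and the highest and lowest of each list. The 3 genes most like Sirt3, with its neighbours left out, were named too. Pcyt2 and Mafg were named outside this rule, after their values were seen, and cell type markers came from their own list. Some cell type markers are not reported here. The members and lists were chosen with earlier results of these data known. Alternatives covered windows, q, equal list length, centring, filters, a replicate block and leaving out each library. Python 3.11.15 with pandas 2.3.3 and numpy 2.4.6 did the rest.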

Additional observations from a re-analysis of the deposited data

Results flagged for a closer look

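Replicate 1 is the only male library of each group, and KO minus WT was taken within the male pair and for every pairing of the 2 female libraries. Of 19 such checks, 5 had the male difference on the opposite side of every female one. The share of all genes with this pattern was not taken, so the count has no background to be set against. These differences between sexes were not tested, since there is 1 male library per genotype, and sex cannot be told apart from that library.

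For KDM2A promoter fold before centring, Sirt1 was 0.536 higher in male KO, against female differences of −0.857 to −0.559. Sirt4 was 0.068 higher in the male pair, against female differences of −0.619 to −0.055. On the centred log2 scale Sirt1 kept this pattern (0.278 in the male pair, −0.266 to −0.206 in females) and Sirt4 lost it (0.042, against −0.211 to 0.058). For H3K36me2 coverage of the gene body, Sirt1 was 7.16 percentage points higher in the male KO library, against −23.4 to −9.28 in females. Sirt2 was 0.79 points higher in the male pair and −21.8 to −5.61 in females. Sirt5 was 6.61 points higher in the male pair and −8.15 to −5.81 in females. The male KO H3K36me2 list covered 3.63% of the genome and the female KO lists 1.59% and 1.44%. Divided by those shares, coverage kept the pattern at Sirt1 (2.225 in the male pair, −4.15 to −0.051 in females) and Sirt5 (1.91, against −1.55 to −1.09), and Sirt2 lost it (0.88, against −4.15 to 0.86).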

How the results depend on the processing

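The counts of called genes were 0 under every alternative run for the KDM2A fold and the H3K36me2 gene body, the replicate block included. Whether the replicate numbers pair the libraries cannot be settled from 3 libraries per group. Deviations of same-numbered libraries correlated at 0.00, −0.02 and 0.02 for KDM2A and at −0.04, 0.06 and −0.08 for H3K36me2. Those of different-numbered libraries ran from −0.02 to 0.02 for KDM2A and from −0.07 to 0.10 for H3K36me2. With the replicate block 0 genes were called in each of the 3 fits. In the downstream window 243 genes were called (66 higher and 177 lower in KO, no sirtuin among them) once all 21911 genes entered, including those covered in fewer than 2 lists, and the cause was not tested. The count of sirtuin genes with a promoter peak in all 6 lists fell from 5 to 1 with peaks of −log10 q of at least 2 and to 1 with the same number of strongest peaks per list, Sirt7 in both. Over all 21911 genes it fell from 5778 to 2392 and to 4513 in turn. Leaving out 1 library at a time left the sirtuin count at 5, and the number of enriched sirtuin genes between 3 and 5. Sirt3 stayed higher in KO without any 1 library, at 0.30 to 0.46 (log2), and was 0.30 without centring, with limma adjusted p from 0.772 to 0.999 over the alternatives that tested it. Peaks of −log10 q of at least 2 and lists of equal length left Sirt3 out of the fit. Small differences changed sign: leaving out 1 library at a time, the KDM2A log2 difference ran from −0.189 to 0.00212 for Sirt1, from −0.0926 to 0.165 for Sirt2 and from −0.117 to 0.0121 for Sirt4, and Sirt1 downstream coverage ran from −6.49 to 5.63 points. Without centring Sirt2 stood at −0.0100, and with peaks of −log10 q of at least 2 its gene body coverage was 1.10 points higher in KO. For these the cause was not tested. Depth is unknown, so a missing peak cannot be told apart from a shallower library.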
